A study of Sus scrofa with 57 samples.

Results

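KLB, FGFR1, ADRB3 and ADRBK2 encode the receptors through which fat cells receive FGF21 and catecholamines, and a kinase that turns adrenergic receptors off. They were taken by symbol from the RNAseq tables and make up 4 of 25285 gene identifiers. FGFR1 is listed there as FGFR1IIIC under ENSSSCG00000015815, and the current symbol of ADRBK2 is GRK3. For 3 of the 4 genes the mean FPKM reached 1, the minimum for a test, and the remaining one, ADRB3, is listed at 0. All captured and bisulfite-sequenced regions in or within 50000 bases of the 4 loci were added. On Sscrofa10.2, KLB (ENSSSCG00000026297) lies at chr8:32268563-32303388 and ADRBK2 (ENSSSCG00000009956) at chr14:46128674-46263886. FGFR1 at chr15:55215592-55269381 and ADRB3 (ENSSSCG00000015821) at chr15:55482168-55484072 are neighbours, with 212786 bases between them.

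Mature adipocytes were isolated by collagenase from the retroperitoneal fat of Duroc-Göttingen minipig F2 pigs chosen from the lean and the obese extreme of a cross. All animals share this crossbred origin, the groups differ by phenotype and not by a treatment or an engineered allele, and no age is given in the labels. RNAseq covered 5 lean and 5 obese males in 11 libraries, because obese pig-572 has 2, which were averaged. Methylated DNA capture (mDNAcap) and reduced representation bisulfite sequencing (RRBS) covered both sexes. For mDNAcap there are 11 libraries of each group, whose values were not matched to animals here.

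FGF21 is a circulating hormone that signals in fat cells through FGFR1, a receptor tyrosine kinase, and needs beta-klotho, the product of KLB, as a co-receptor on the same cell. Noradrenaline acts on beta-adrenergic receptors, which couple to the stimulatory G protein, raise cyclic AMP and switch on lipolysis through protein kinase A. The beta-adrenergic receptor kinases ADRBK1 and ADRBK2 phosphorylate occupied receptors so that arrestins bind and end the signal. ADRB3 is the receptor best known from fat of rodents.

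The 9 adipocyte markers with an entry, all of them tested, summed to 2459 to 2843 FPKM in lean and 2132 to 3312 in obese pigs. Of these, CD36 alone averaged 1381 FPKM in lean and 1148 in obese pigs, and ADIPOQ, LPL and FABP4 had no entry. Leukocyte markers summed to 19.1 to 33.2 in lean and 18.5 to 72.2 in obese pigs, with CD163 at 0 throughout. S100A8 alone averaged 16.4 FPKM in lean and 26.2 in obese pigs. The 9 endothelial entries summed to 2.47 to 17.5 in lean and 10.4 to 14.8 in obese pigs, and the 9 pericyte and smooth muscle entries to 5.60 to 14.5 and 10.8 to 15.0. The 8 mesothelial markers stayed between 0.355 and 1.24 in sum, and the 5 erythrocyte markers between 15.5 and 99.2. The fibroblast and preadipocyte entries, 17 in number, summed to 258 to 828 in lean and 265 to 641 in obese pigs, with both DLK1 entries at 0. COL3A1 alone averaged 419 FPKM in lean and 372 in obese pigs. All 11 tested fibroblast and preadipocyte entries had a lower mean in obese pigs. Of these, 2 had an unadjusted p under 0.05, beside 10.3% of all genes tested that were lower at that threshold. Sums that rest largely on single genes were not taken as shares of cell types. Between 8950 and 10291 genes per library had an FPKM of 1 or more, the lowest being the second library of pig-572.

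Across the transcriptome, 1 of 10246 genes passed an adjusted p of 0.05 in limma (0.00976%), namely C10ORF46, which is named because it is the single call. At an unadjusted p under 0.05, 10.5% of the genes were higher and 10.3% lower in obese pigs, and the groups did not overlap for 4.14%. None of the 3 tested members passed the adjusted threshold. Only ADRBK2 had an unadjusted p under 0.05. The count of calls rested on single libraries, since 165 genes passed without lean pig-402 and 2 without lean pig-407, without lean pig-577 or without obese pig-529. No member was among them.

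Levels are given as FPKM, fragments scaled to transcript length and library total, divided by a size factor of the library. KLB was the most abundant member, with a mean over pigs of 94.3 FPKM that exceeded 94.0% of the tested genes. ADRBK2 averaged 32.6 FPKM, above 86.8% of the genes, and FGFR1 averaged 6.56 FPKM, above 56.9%. The order KLB, ADRBK2, FGFR1 held within 11 of 11 libraries. KLB exceeded ADRBK2 by 1.52 to 8.26 times and ADRBK2 exceeded FGFR1 by 2.26 to 11.2 times, so neighbours in the order were set apart in every library.

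ADRB3 was listed at exactly 0 FPKM in each of the 5 lean and 6 obese libraries. Such a value was shared by 5690 genes (22.5%). Of 24 entries checked for genes that every cell uses, 2 were also listed at 0 in all libraries, both of them EEF1A1, a translation factor. In total 3 of the 24 were at 0 in some or all libraries. Whether the 0 of ADRB3 is a measured absence cannot be told from these values, and ADRB3 was given no fold change or test.

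KLB, the co-receptor, stood at 79.7, 85.5, 119, 104 and 130 FPKM in lean pig-402, pig-407, pig-413, pig-525 and pig-577. In obese pig-433, pig-473, pig-524, pig-529 and pig-572 it stood at 76.2, 92.6, 103, 82.6 and 70.8 FPKM. Obese pigs filled the lower part of the range, but the groups overlapped, with lean pig-402 and pig-407 among the obese values. The mean was 104 ± 21.3 FPKM in lean and 85.0 ± 12.9 in obese pigs (SD, n = 5 each). The log2 difference of the value plus 1, obese minus lean, was -0.27 ± 0.17 (SE), with a 95% interval from -0.64 to 0.10, a limma adjusted p of 0.376 and an exact permutation p of 0.143. The bounds that cufflinks gave for KLB spanned 1.28% to 2.03% on either side of the estimate, well below the spread between pigs.

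FGFR1, the signalling partner of KLB, was measured at 7.86, 5.32, 7.73, 8.13 and 6.16 FPKM in the lean pigs, in the same order. The obese values were 8.99, 5.75, 5.81, 5.85 and 3.95 FPKM. Obese pig-433 was the highest and obese pig-572 the lowest of all 10 pigs, so the obese range enclosed the lean one. Means were 7.04 ± 1.23 and 6.07 ± 1.82 FPKM (SD, n = 5 each). The log2 difference was -0.21 ± 0.18 (SE), its 95% interval ran from -0.60 to 0.18, and the adjusted p was 0.523 in limma with an exact permutation p of 0.341. Leaving out obese pig-433 moved the log2 difference to -0.34 and leaving out obese pig-572 moved it to -0.09. Neither was called, at adjusted p-values of 0.245 and 0.811. FGFR1 was the least precise member, with cufflinks bounds of 7.81% to 18.7%. The tables give one entry for the gene, and splice forms of the receptor were not analysed here.

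**Figure D1:**
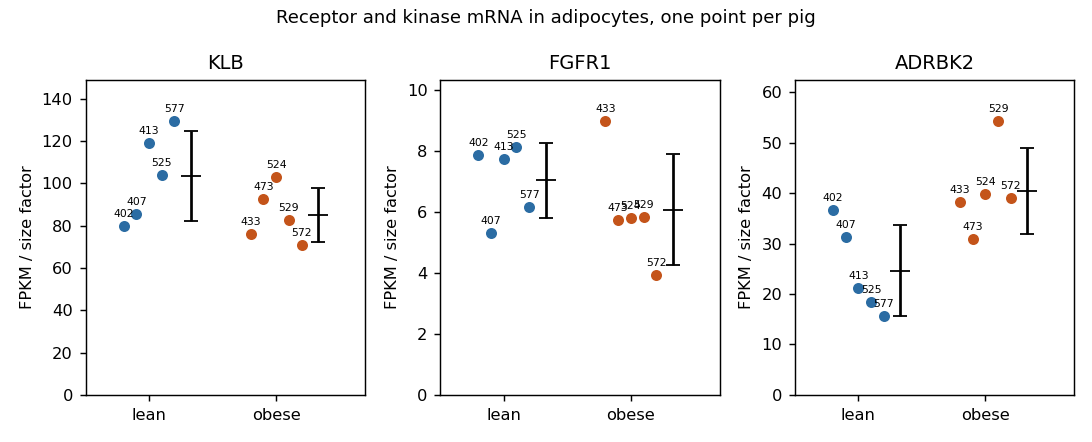
FPKM divided by the size factor for KLB, FGFR1 and ADRBK2, one point per pig with its number, with mean ± SD (n = 5) beside each group. KLB and FGFR1 overlap between lean and obese pigs, and for ADRBK2 lean pig-402 and pig-407 (36.7 and 31.3) reach the lowest obese values.

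Because beta-klotho and FGFR1 work as one complex, their ratio was taken within each library, where no scaling enters. Lean pigs had 10.1, 16.1, 15.4, 12.8 and 21.0 KLB per FGFR1. The obese pigs had 8.48, 16.1, 17.7, 14.1 and 18.0. Both groups spread over much the same range, with means of 15.1 ± 4.07 and 14.9 ± 3.91 (SD, n = 5 each). The log2 difference of the ratio was -0.03 ± 0.27 (SE), with an exact permutation p of 0.913. The sign turned with the libraries used: the difference was 0.10 without lean pig-577 and 0.16 without obese pig-433.

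Further genes of the FGF21 receptor complex were matched in the same tables. FGF21 itself, made mainly in liver, had at most 0.0278 FPKM. It was above 0 only in lean pig-407 and pig-413, and at 0 in the other lean pigs and all obese pigs. KL, the klotho partner of another endocrine FGF, averaged 0.00419 FPKM in lean and 0.0245 in obese pigs. FGFR3 averaged 0.0376 and 0.0288 FPKM, and FGFR4 averaged 0.204 and 0.520. Among FGFR1 to FGFR4, FGFR1 thus had the highest level per length in these adipocytes, and FGFRL1 had no entry. FGFR2 averaged 1.69 ± 0.65 FPKM in lean and 0.922 ± 0.40 in obese pigs (limma adjusted p = 0.192), the lowest log2 difference of the complex at -0.48 ± 0.18. FGF1, a local ligand made by fat cells, had the highest, 0.46 ± 0.19, with means of 0.881 ± 0.52 and 1.56 ± 0.46 FPKM (limma adjusted p = 0.205). Of the 5 genes tested in this list, which include KLB and FGFR1, limma called 0 after adjustment. At an unadjusted p under 0.05, 1 was higher and 1 lower, beside 10.5% and 10.3% of all genes tested. The median log2 difference of the 5 was -0.27, which is the value of KLB itself, beside -0.0024 for all genes tested.

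Downstream of FGFR1, 18 of 21 genes that relay the signal to the MAP kinases were tested, and 0 passed adjustment. At an unadjusted p under 0.05, 3 were higher and 0 lower in obese pigs, beside 10.5% and 10.3% of all genes tested. The median log2 difference was 0.13. SOS1, the exchange factor that loads RAS, had the highest difference of 0.35 ± 0.13 (limma adjusted p = 0.193), and the kinase RPS6KA3 the lowest at -0.15 ± 0.13. Of 14 entries of feedback inhibitors, 6 were tested and 0 called, with a median of -0.65. In obese pigs 4 of the 6 were lower, each at an unadjusted p under 0.05, beside 10.3% of all genes tested, and 2 were higher. The 8 entries that averaged under 1 FPKM went both ways in their means. DUSP5, a phosphatase of ERK in the nucleus, averaged 4.16 ± 2.72 FPKM in lean and 1.14 ± 1.24 in obese pigs (limma adjusted p = 0.178), and DUSP4 had the highest difference, 0.41 ± 0.50. SPRY1, a Sprouty inhibitor named after its values were seen, was the single list gene that stayed lower in every obese pig, at 0.903 to 1.78 FPKM against 1.97 to 3.14 in lean pigs (limma adjusted p = 0.139), where 4.14% of all genes had no overlap in either direction.

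Early target genes of the receptor had a median log2 difference of -1.03 over 5 tested genes, with 0 called. At an unadjusted p under 0.05, 4 were lower, beside 10.3% of all genes tested. IER3, an immediate early gene, had the lowest difference of -1.89 ± 0.85 and ranged from 25.2 to 207 FPKM in lean and from 3.11 to 83.9 in obese pigs. Most of these genes also belong to the response to tissue dissociation. The 12 listed dissociation markers summed to 606 to 1978 FPKM in lean and 288 to 1067 in obese pigs, and 7 of the 12 were lower at an unadjusted p under 0.05. The part of this response in the values of the FGF target and feedback genes was not tested.

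ADRB1, a beta-adrenergic receptor shared with the heart, was detected at a low level. It stood at 0.513, 2.47, 1.88, 0.980 and 1.60 FPKM in the lean pigs and at 1.03, 0.559, 0.325, 0.719 and 0.264 in the obese pigs. Lean pig-402 lay below 3 of the obese pigs, and the others of its group lay above 4 or all of them. The log2 difference was -0.62 ± 0.23 (limma adjusted p = 0.182, exact permutation p = 0.0556). In bulk adipocytes, fewer cells of a type and less RNA per cell cannot be told apart.

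ADRA2A, a receptor that lowers cyclic AMP, was above 0 in 1 lean pig only, at 0.0121 FPKM. ADORA1, the adenosine receptor that restrains lipolysis, had 10.8 to 15.6 FPKM in lean and 17.4 to 22.3 in obese pigs, without overlap. Its log2 difference of 0.53 ± 0.12 was the highest of the surface receptors and missed the threshold (limma adjusted p = 0.0958, exact permutation p = 0.00794, the smallest that 5 against 5 pigs allow). Of the 8 tested genes in this list, which also holds the natriuretic peptide receptors, limma called 0. At an unadjusted p under 0.05, 1 was higher and 4 were lower in obese pigs, beside 10.5% and 10.3% of all genes tested. The median log2 difference was -0.65. Among G proteins and adenylyl cyclases, 9 were tested and 0 called. Of these, 2 were higher and 0 lower at an unadjusted p under 0.05, beside the same 10.5% and 10.3%. ADCY5, which makes cyclic AMP, had the highest difference (0.51 ± 0.26) and GNAI1, an inhibitory G protein subunit, the lowest (-0.31 ± 0.18).

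**Figure D2:**
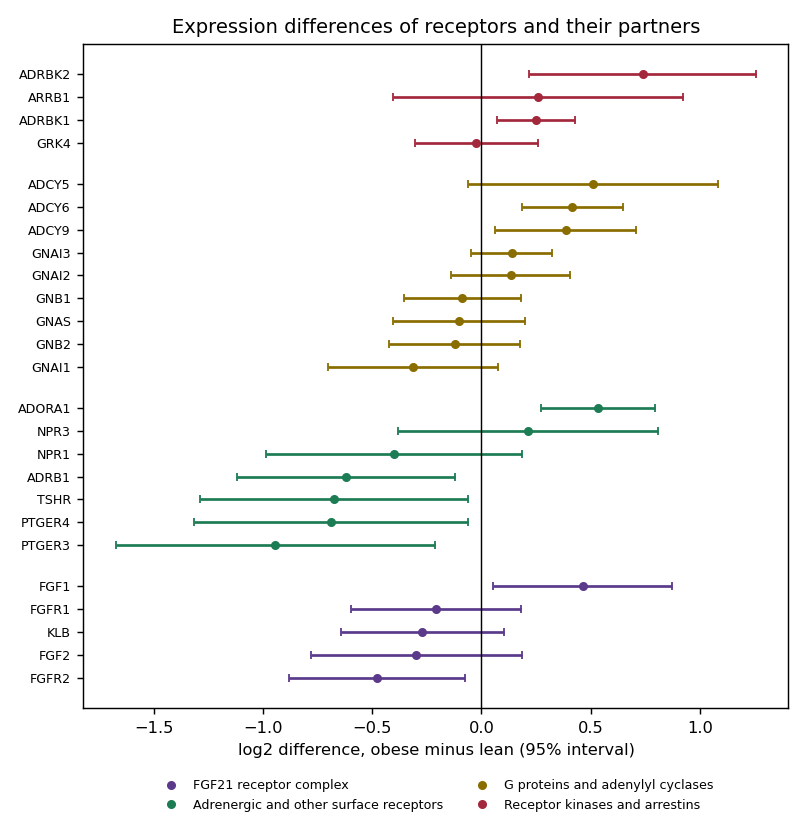
Log2 difference of scaled FPKM plus 1, obese minus lean, with its 95% interval from limma (5 pigs a group) for tested genes of 4 groups. ADRBK2 and ADORA1 lie right of 0 (0.74 and 0.53) and ADRB1 and FGFR2 left of it (-0.62 and -0.48), and none of the genes shown passed the adjusted threshold.

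ADRBK2, the receptor kinase, stood at 36.7, 31.3, 21.2, 18.4 and 15.7 FPKM in lean pig-402, pig-407, pig-413, pig-525 and pig-577. The obese pigs had 38.2, 30.9, 39.8, 54.3 and 39.1 FPKM in the order given for KLB. Lean pig-402 and pig-407 exceeded obese pig-473, and the other lean pigs lay below every obese pig. The means were 24.7 ± 8.95 FPKM in lean and 40.5 ± 8.53 in obese pigs (SD, n = 5 each). The log2 difference of 0.74 ± 0.24 (SE) equals 1.67 times on that scale, with a 95% interval from 1.16 to 2.39 times. It had an exact permutation p of 0.0238 and a limma p of 0.00996, and 652 genes had a smaller one. After adjustment over all genes the p was 0.156, and the difference was not called. Without lean pig-402 it was 0.89, with an adjusted p of 0.0585. The lean pigs split in the same way in the summed markers of tissue dissociation. These stood at 1977, 1601 and 1978 FPKM in pig-413, pig-525 and pig-577, against 868 and 606 in pig-402 and pig-407 and 288 to 1067 in obese pigs. The part of that response in the ADRBK2 and KLB values was not tested.

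ADRBK1, the other beta-adrenergic receptor kinase, was far less abundant. Its values were 1.864, 1.731, 1.656, 1.554 and 1.747 FPKM in lean pigs and 2.38, 1.96, 2.63, 2.06 and 2.13 in obese pigs. Every obese pig exceeded every lean pig, with a log2 difference of 0.25 ± 0.08 that was not called (limma adjusted p = 0.156). GRK4 averaged 3.85 ± 0.53 and 3.80 ± 0.79 FPKM (difference -0.02 ± 0.13, the lowest of the list), and GRK5 averaged 0.223 and 0.146. The arrestins, which bind the phosphorylated receptor, were low as well: ARRB1 averaged 1.07 ± 0.70 and 1.49 ± 0.93 FPKM and ARRB2 0.193 and 0.223. Of the 4 tested kinases and arrestins, 0 were called. The 2 beta-adrenergic receptor kinases were higher at an unadjusted p under 0.05, beside 10.5% of all genes tested.

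The ratio of ADRBK2 to ADRBK1 within a library was 19.7, 18.1, 12.8, 11.8 and 8.98 in lean pigs. In obese pigs it was 16.1, 15.8, 15.1, 26.4 and 18.4. The groups overlapped, with means of 14.3 ± 4.47 and 18.4 ± 4.68 (SD, n = 5 each). The log2 difference of 0.39 ± 0.25 (SE) had an exact permutation p of 0.159. In both groups ADRBK2 thus exceeded ADRBK1 per length. GRK6, another receptor kinase, had no entry.

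**Figure D3:**
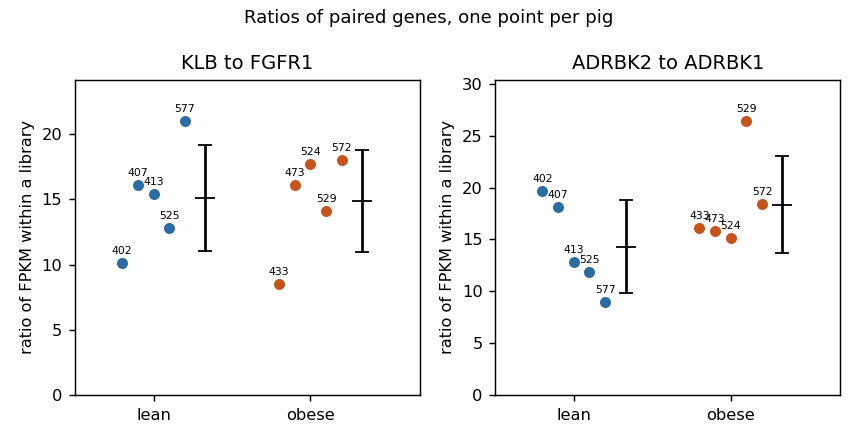
Ratio of FPKM within a library for KLB to FGFR1 and for ADRBK2 to ADRBK1, one point per pig with its number, with mean ± SD (n = 5) beside each group. KLB to FGFR1 averages 15.1 in lean and 14.9 in obese pigs, and obese pig-529 stands highest for ADRBK2 to ADRBK1 at 26.4.

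Further down the adrenergic pathway, 14 entries of protein kinase A and phosphodiesterase genes were tested and 0 called. At an unadjusted p under 0.05, 2 were higher and 2 lower, beside 10.5% and 10.3% of all genes tested. Their median log2 difference was 0.03 over the 14 entries. AKAP12, a scaffold that tethers protein kinase A, had the highest difference (0.39 ± 0.15), and PRKAR2B, a regulatory subunit abundant in fat, the lowest (-0.69 ± 0.36). Over all lists, which include the members, limma called 0 of 69 genes, and 26 (37.7%) had an unadjusted p under 0.05, 11 higher and 15 lower, beside 20.8% of all genes tested. Without lean pig-413 the count was 11 (15.9%, beside 14.3% of all genes) and without lean pig-577 it was 14 (20.3%, beside 14.8%). It was 13 without obese pig-524 (18.8%, beside 15.2%) and 15 without obese pig-572 (21.4%, beside 14.4%). The groups did not overlap for 3 of the 69 genes (4.35%), near the 4.14% of all genes.

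KLB and ADRBK2 ran in opposite directions over the 10 pigs. Pearson's r of their log2 levels was -0.79 (permutation p = 0.00722, adjusted p = 0.0217 over the 3 pairs of tested members) and Spearman's rho was -0.70 (permutation p = 0.0296, adjusted p = 0.0889). Without pig-577 and pig-413, which lay farthest from the median of KLB, r was -0.53. Both pigs are lean. The coefficients pool lean and obese pigs, and these groups differed in both genes, with log2 differences of -0.27 for KLB and 0.74 for ADRBK2. With 5 pigs a group, no correlation was computed within lean or obese pigs. Lean pig-413, pig-525 and pig-577, with high KLB and low ADRBK2, were also the pigs with the highest summed dissociation markers, and the part of that response in the relation was not tested. KLB and FGFR1 gave r = 0.24 and rho = 0.16 (permutation p = 0.504 and 0.659), and FGFR1 and ADRBK2 gave r = -0.29 and rho = -0.28 (permutation p = 0.416 and 0.429). Adjusted p-values of these pairs lay between 0.504 and 0.659.

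**Figure D4:**
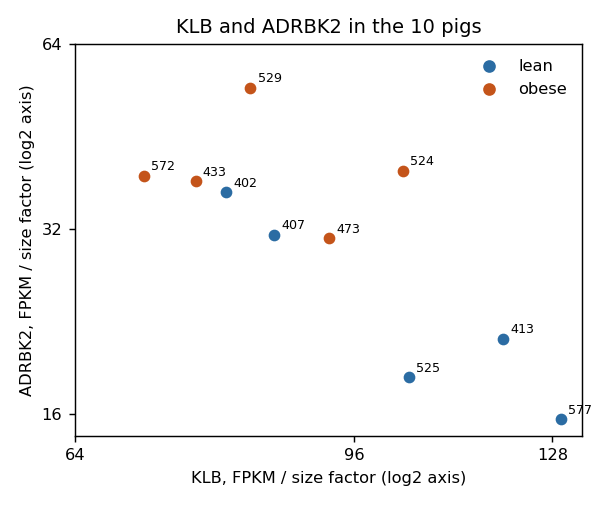
ADRBK2 against KLB, both as FPKM divided by the size factor on log2 axes, one point per pig with its number. Lean pig-413, pig-525 and pig-577 sit at high KLB and low ADRBK2, and lean pig-402 and pig-407 sit among the obese pigs.

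The named genes with the profile most like each member over the 10 pigs were taken by Pearson's r as a description. They were SMARCE1 (0.945), POT1 (0.945) and KIAA1328 (0.927) for KLB, and TNFAIP1 (0.897), SPATA5 (0.882) and MRI1 (0.862) for FGFR1. For ADRBK2 they were NBEAL1 (0.974), CCNY (0.959) and EDEM2 (0.952). The profiles share the same libraries and size factors, and each trio is the top of 10246 genes ranked.

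Captured methylated DNA was deposited for 7401 regions, and 28.3% of all gene loci have at least one of them within 50000 bases. KLB and ADRBK2 have 1 each. The nearest region lay 61992 bases from FGFR1 and 269429 bases from ADRB3. The table holds only regions that the authors had selected on these same libraries, so a call is no independent evidence of a difference. Accordingly, 27.1% of the regions were called higher and 69.0% lower in obese pigs, and the median log2 difference of all regions was -0.67.

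The KLB region, chr8:32299801-32300800, lies within the locus, 2588 bases from its right end. Its normalized count ran from 13.7 over a median of 20.3 to 28.1 in 11 lean libraries and from 22.4 over 28.0 to 46.2 in 11 obese libraries. All 11 obese libraries exceeded the lean median, and 5 exceeded the highest lean library, while 1 lean library exceeded the obese median. The mean was 20.2 ± 4.31 in lean and 29.4 ± 7.22 in obese libraries. The region was hyper-methylated by 0.52 ± 0.15 on the log2 scale of the count plus 1 (limma adjusted p = 0.00849, permutation p = 0.00054). This lies 1.19 above the median of all regions, most of which were lower in obese pigs, while 81% of the regions had a larger difference in either direction. About 7 to 61 reads stood behind a lean value and about 11 to 76 behind an obese value. With a covariate for the genome-wide mean of reads in a bin, added once the data had been seen, the difference was 0.42 with an adjusted p of 0.0770 and was no longer called.

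The region assigned to ADRBK2, chr14:46309901-46310900, begins 46015 bases beyond the right end of the kinase locus and lies inside MYO18B, a myosin gene of muscle at chr14:46291850-46512386. MYO18B had at most 0.0102 FPKM in any pig. The normalized count ran from 12.9 over a median of 18.4 to 30.3 in lean libraries and from 5.81 over 12.8 to 17.1 in obese libraries. No obese library reached the lean median, and 6 lay below the lowest lean library. Means were 19.3 ± 4.79 and 12.1 ± 3.96 (SD, n = 11 each). The region was hypo-methylated, with a log2 difference of -0.67 ± 0.19 (limma adjusted p = 0.00849, permutation p = 0.00048), close to the median of all regions.

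The difference at MYO18B depended on the scaling. With median-of-ratios scaling it was -0.37 (adjusted p = 0.0788), with scaling by the mean read count per bin -0.39 (adjusted p = 0.0958) and with that count as a covariate -0.63 (adjusted p = 0.0710). The difference at KLB was 0.83 and 0.81 under the same 2 scalings, and both were called. Median-of-ratios scaling moved the median of all regions to -0.37 and the calls to 2125 higher and 807 lower, against 2009 and 5109. Under the covariate limma called 0 of the 7401 regions, with 3660 at an unadjusted p under 0.05. Divided by the library's constant, the mean read count of a bin averaged 1.94 ± 0.35 in lean and 1.59 ± 0.42 in obese libraries (SD), and its part in the differences was not tested beyond these alternatives. In the header of the table, 5 libraries of each group lie in one sequencing folder and 6 in the other. The values were not matched to the animals or folders listed in the header, so within-folder and within-sex values were not given. One pig labelled obese, pig-411, is listed by the header among the lean files, and the lean values include it.

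**Figure D5:**
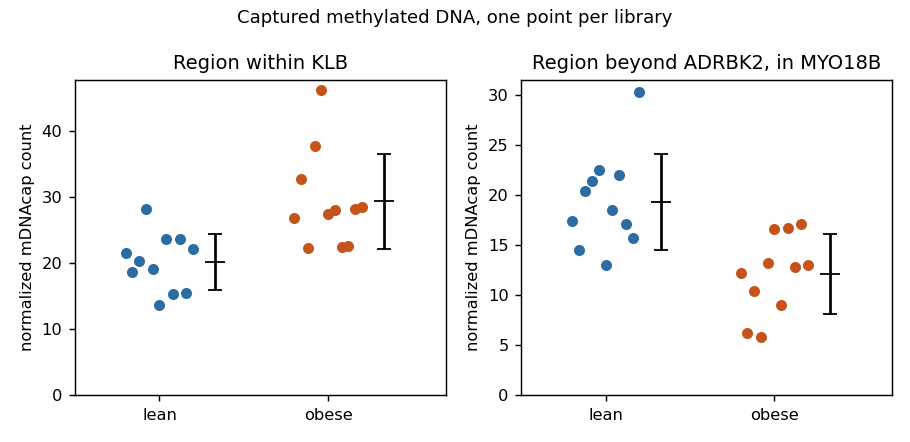
Normalized mDNAcap count per library at the region within KLB and at the region beyond ADRBK2 that lies in MYO18B, with mean ± SD (n = 11) beside each group. At KLB all 11 obese libraries exceed the lean median of 20.3, and at MYO18B no obese library reaches the lean median of 18.4.

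RRBS gave no region near a member in the table that required 5 pigs of each group, where 5.01% of all gene loci have a region within 50000 bases. The nearest lay 540476 bases from FGFR1. The table that required 3 pigs of each group, which reaches 16.1% of the loci, held 1 region, within FGFR1 at chr15:55231910-55232165 as the file gives it. It begins 16318 bases from the left end of the locus and spans 11 CpGs. The authors' mean methylation was 27.5% in obese and 14.1% in lean pigs, a difference of 13.4 points. The median size of the difference over the 2416 regions of that table was 13.8 points, and 45.6% of them had a smaller one. These means are given without values per animal or depth, so the difference could not be tested here. FGFR1 thus had 1 RRBS region and no captured region, KLB and ADRBK2 had 1 captured region each and no RRBS region, and ADRB3 had neither.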

How the data were processed

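RNAseq, mDNAcap and RRBS of pig adipocytes were compared between lean and obese pigs, for RNAseq as the labels group them and for the methylation tables as the authors' own files do. Per the labels and the study's methods, the authors mapped ribosome-depleted RNA to Sscrofa10.2 with STAR 2.3.1 and deposited FPKM values from Cufflinks 2.2.0. Per the file headers, the authors counted captured reads with diffReps 1.55.4 in 1000-base windows moved by 100 bases, keeping those with a G-test p under 0.0001. The deposited signal of a library is its read count divided by one constant, and all 154811 values whose rounding allowed a check within 0.25 reads came back as whole reads. For RRBS the authors mapped with Bismark 0.10 and deposited per region a score, the number of CpGs, and the mean methylation of each group as a fraction, given here in percent. Columns with the authors' own fold changes, differences, p-values and q-values were not used.

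The members and gene lists were chosen with earlier results of these data known. FPKM were divided by median-of-ratios size factors (0.693 to 1.23), both libraries of pig-572 entered as their mean, and 1 was added before taking log2. For the 10246 genes whose FPKM averaged 1 or more, groups were compared by limma 3.58.1 in R 4.3.3 (eBayes with trend, Benjamini-Hochberg, threshold 0.05). The pseudocount understates differences of low genes. Exact two-sided permutation tests used the 252 splits of the 10 pigs. Ratios and correlations used the same pigs, and correlations and regions 100000 permutations (scipy 1.17.1). Regions were fitted with limma on log2 of the normalized count plus 1. Names came from the tables for 17794 genes and from a reference list for 1157, and 6334 had none. The 9 genes with a failed estimate were not tested. FPKM hide the depth of an RNAseq library. The p-values of group comparisons set a difference against the spread between these pigs, or between libraries for the regions. The text names the members, a fixed set of receptors, kinases and arrestins, the highest and lowest difference in each list, the 3 genes most like each member and the loci at the regions, and 1 gene that this rule takes is counted but not reported here. Alternatives changed the scaling, pseudocount, minimum, trend, region limits and animals. Scripts were tested on simulated data.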

Additional observations from a re-analysis of the deposited data

Results flagged for a closer look

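The ratio of ADRBK2 to ADRBK1 in obese pig-529 was 26.4, far from the 15.1 to 18.4 of the other obese pigs: the gap to its nearest neighbour took 0.711 of the range of the group, just over the critical value of 0.71 for 5 samples. Of 10 groups so examined, this was the single one past that value. Chance takes about 1 in 20 single groups past it, so 1 among 10 groups is not unusual. Pig-529 also had the highest ADRBK2 level of all pigs, 54.3 FPKM, at 2.06 FPKM of ADRBK1.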

How the results depend on the processing

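The log2 differences of KLB, FGFR1 and ADRBK2 kept their sign and stayed above the adjusted threshold under each of 17 alternatives, with ranges of -0.36 to -0.18, -0.34 to -0.09 and 0.60 to 0.89. Adjusted p ran from 0.202 to 0.617, from 0.245 to 0.811 and from 0.0585 to 0.301. The count of genes called was 0 with FPKM as deposited (limma, 1396 at an unadjusted p under 0.05), 5 without a minimum, 178 with pig-572's libraries as separate replicates, and 1 to 165 when leaving out a pig. The count of list genes at an unadjusted p under 0.05 ran from 11 to 24 when leaving out a pig. The ratio of KLB to FGFR1 differed by -0.16 to 0.16 when leaving out a pig and by 0.0053 without the second library of pig-572, with the sign turned. The ratio of ADRBK2 to ADRBK1 kept its sign, at 0.24 to 0.52. Of the regions, the one at KLB was no longer called with the covariate (0.42), and the one at MYO18B with median-of-ratios scaling (-0.37), scaling per bin (-0.39) and the covariate (-0.63). Within 10000 bases, and within the loci alone, 1 captured region remained, and requiring 3 pigs of each group gave 1 RRBS region. The cause of these changes was not tested. No paired analysis was possible because no pig number occurs in both the lean and the obese group.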
